A study of Homo sapiens with 12 samples.

Results

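The genes described here carry glucose into the cell, break it down to pyruvate and lactate, and divert it into the pentose phosphate pathway and to glycerol 3-phosphate. They were taken from a list of 34 genes by the gene annotation of the array's probes. Of these, 31 had an annotated probe that was detected, meaning a detection p-value under 0.05 on both arrays in 1 group or more, among 12117 genes tested in all. PGAM1, SLC16A1 and SLC16A3 were not analysed here. GAPDH, the glycolytic enzyme that the siRNA was directed against, was kept out of the set and is given once as a check of the labels. The 31 genes had 45 probes, of which 37 passed the detection filter, and each gene is given by its brightest probe on average. Each of the 31 probes used was detected on all 12 arrays, so the filter chose no member by the group in which it was high. Just inside the filter, a second probe of PFKFB2 was detected on 3 arrays, and just outside it, a second probe of PFKL was also detected on 3 arrays.

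The cells were H1299, a line from a human non-small cell carcinoma of the lung, grown in DMEM medium with 10% FCS. They were treated for 6 h with GAPDH siRNA delivered by lipofection, with GAPDH siRNA delivered by PTD-DRBD, a fusion of a cell-entering peptide with a domain that binds double-stranded RNA, or with PBS buffer as control. After washing, RNA was collected at 24 h or 12 h, which gave 6 groups of 2 arrays. Nothing in the labels gives the paired arrays separate cultures, so p-values rest on a spread between arrays that may be technical only. The groups were lipofection at 24 h, PTD-DRBD at 24 h, control at 24 h, lipofection at 12 h, PTD-DRBD at 12 h and control at 12 h. The control cells received buffer with neither a carrier nor another siRNA, so in each comparison with control the carrier, the siRNA and the loss of its target cannot be told apart. GAPDH RNA also differed between the routes, so between them the carrier and the extent of target loss cannot be told apart. In extracts of whole cultures, fewer cells that express a gene and less RNA per cell cannot be told apart either.

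Glycolysis begins with glucose transporters and hexokinase, is paced at phosphofructokinase, and yields ATP and NADH in its lower steps, with GAPDH as the enzyme that makes NADH. The PFKFB enzymes set the level of fructose 2,6-bisphosphate, the activator of phosphofructokinase. The pentose phosphate pathway makes NADPH in its oxidative arm and ribose 5-phosphate, the sugar of nucleotides, through RPIA, and its transketolase and transaldolase steps return carbon to glycolysis. Several glycolytic genes, among them PGK1, ENO2, PFKFB4 and PDK1, are known targets of the hypoxia-inducible factors, and PGD, TKT and TALDO1 are known targets of NRF2.

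The promoters of 5 members are shown because these genes carried the largest changes with time or treatment or represent a motif class. They are RefSeq windows of 300 bases on GRCh38.p14 that hold the annotated start and mostly lie before it, written 5′ to 3′ on the strand of the gene. In PFKFB4 (chr3:48556754-48557053, minus strand), PGK1 (chrX:78103998-78104297, plus strand), ENO2 (chr12:6914330-6914629, plus strand) and RPIA (chr2:88691423-88691722, plus strand) capitals mark ACGTG or GCGTG, the core letters of the hypoxia response element, on either strand. In PGD (chr1:10398814-10399113, plus strand) capitals mark TGACNNNGC, the core of the antioxidant response element, on either strand.
PFKFB4: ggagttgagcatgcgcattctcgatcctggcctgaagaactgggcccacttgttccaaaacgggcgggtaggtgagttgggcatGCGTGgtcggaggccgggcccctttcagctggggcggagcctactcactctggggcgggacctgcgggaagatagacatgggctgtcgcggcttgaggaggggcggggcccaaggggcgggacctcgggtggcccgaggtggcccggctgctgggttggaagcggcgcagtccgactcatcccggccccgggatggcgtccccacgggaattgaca
PGK1: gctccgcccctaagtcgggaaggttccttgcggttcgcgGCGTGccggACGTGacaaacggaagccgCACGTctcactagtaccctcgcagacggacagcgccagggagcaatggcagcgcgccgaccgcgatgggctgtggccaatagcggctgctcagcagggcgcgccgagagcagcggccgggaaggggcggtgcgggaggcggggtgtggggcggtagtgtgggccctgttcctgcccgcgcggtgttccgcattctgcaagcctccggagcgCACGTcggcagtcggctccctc
ENO2: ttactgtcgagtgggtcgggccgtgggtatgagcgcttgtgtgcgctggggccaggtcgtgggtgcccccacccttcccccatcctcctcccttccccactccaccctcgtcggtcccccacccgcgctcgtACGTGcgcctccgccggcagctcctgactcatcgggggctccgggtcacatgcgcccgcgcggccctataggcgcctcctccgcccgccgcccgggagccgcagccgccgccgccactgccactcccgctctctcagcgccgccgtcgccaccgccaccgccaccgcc
RPIA: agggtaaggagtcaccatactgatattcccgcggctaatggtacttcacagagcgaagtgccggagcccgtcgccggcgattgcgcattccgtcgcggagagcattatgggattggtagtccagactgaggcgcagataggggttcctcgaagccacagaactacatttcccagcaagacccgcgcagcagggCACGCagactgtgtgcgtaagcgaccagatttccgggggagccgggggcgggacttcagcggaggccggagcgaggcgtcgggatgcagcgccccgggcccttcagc
PGD: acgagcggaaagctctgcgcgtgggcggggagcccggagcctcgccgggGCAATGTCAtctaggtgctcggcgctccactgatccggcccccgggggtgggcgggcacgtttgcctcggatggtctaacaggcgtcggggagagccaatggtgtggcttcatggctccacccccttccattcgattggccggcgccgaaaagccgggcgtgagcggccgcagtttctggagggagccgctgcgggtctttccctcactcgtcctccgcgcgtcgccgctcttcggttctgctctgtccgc

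PGK1 held 4 such matches, and PFKFB4, ENO2, RPIA and PGD held 1 each of the motif marked. Of the 31 genes, all but SLC2A3 and PFKFB2 had a window, 52 windows in all because some genes have several starts. ACGTG was found in 19 of the 52 windows (36.5%), against 21.4% of all 35116 windows. GCGTG was found in 22 (42.3%), against 36.5% of all windows. The E-box letters CACGTG, which contain ACGTG, were found in 6 (11.5%), against 7.26%, and TGACNNNGC in 6 (11.5%), against 13.3%. A gene with several windows counts several times, and such windows may overlap, so these shares are a description. The matches are letters, not sites shown to be used.

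Between 17990 and 19097 probes were detected on each array, median raw intensities lay between 61.3 and 73.1, and replicate arrays correlated at 0.997 to 0.9984 over the genes tested. The keratins KRT8 and KRT18 and vimentin, VIM, were detected on all 12 arrays. The keratin KRT19 and the lung lineage genes NKX2-1, SFTPC and NAPSA were detected on 0, and the lung lineage gene SFTPB on 1. Of 16 markers of blood, stromal and endothelial cells, 14 had an annotated probe. PTPRC, detected on all 12 arrays, KDR on 9, and LYZ and PECAM1 on 6 each passed the filter, at log2 levels of 4.86 to 5.63. HBA1 was detected on 5 arrays and DCN on 2, and neither passed. CD3E, CD14, HBB, COL1A1, COL3A1, LUM, VWF and CDH5 were detected on 0 arrays. None of the 4 that passed the filter passed the test in a comparison with control or between the routes. GAPDH stood at log2 levels of 14.07 and 14.21 with lipofection at 24 h, 12.27 and 12.25 with PTD-DRBD at 24 h, and 15.09 and 15.11 in control at 24 h. At 12 h it stood at 13.81 and 13.74 with lipofection, 11.75 and 11.62 with PTD-DRBD, and 15.02 and 15.05 in control. GAPDH RNA was lower in every treated group than in its control. The log2 fold change was -0.96 with lipofection and -2.84 with PTD-DRBD at 24 h, and -1.26 with lipofection and -3.36 with PTD-DRBD at 12 h (SE 0.08).

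Values below are log2 normalized intensities, called log2 levels, and log2 fold changes are differences of group means. Across the 12 arrays a member's log2 level spanned a median of 0.61, and 5 members spanned more than 1. PFKFB4 spanned 2.74, SLC2A3 2.23, ENO2 1.27, RPIA 1.16 and GPD2 1.11, whereas ENO1, the main enolase of most cells, spanned 0.19. The heat map of all members shows these spans beside the replicate arrays of each group. Of the 31 genes, 24 passed the test, an adjusted p under 0.05 in limma over all genes tested, in at least 1 of 11 comparisons. Single comparisons called from 44 to 3096 of the 12117 genes. The share of all genes that passed in at least 1 comparison was not counted, so 24 has no share to stand beside. The 7 members that passed in none were TPI1, ENO1, LDHA, LDHB, PDHA1, PDHB and RPE. Their log2 fold changes against control lay between -0.28 and 0.17, with 95% intervals that reached from -0.56 to 0.34. Both lactate dehydrogenase genes, which interconvert pyruvate and lactate, and PDHA1 and PDHB, which encode the E1 component of the pyruvate dehydrogenase complex, were thus among the genes that did not pass.

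**Figure D1:**
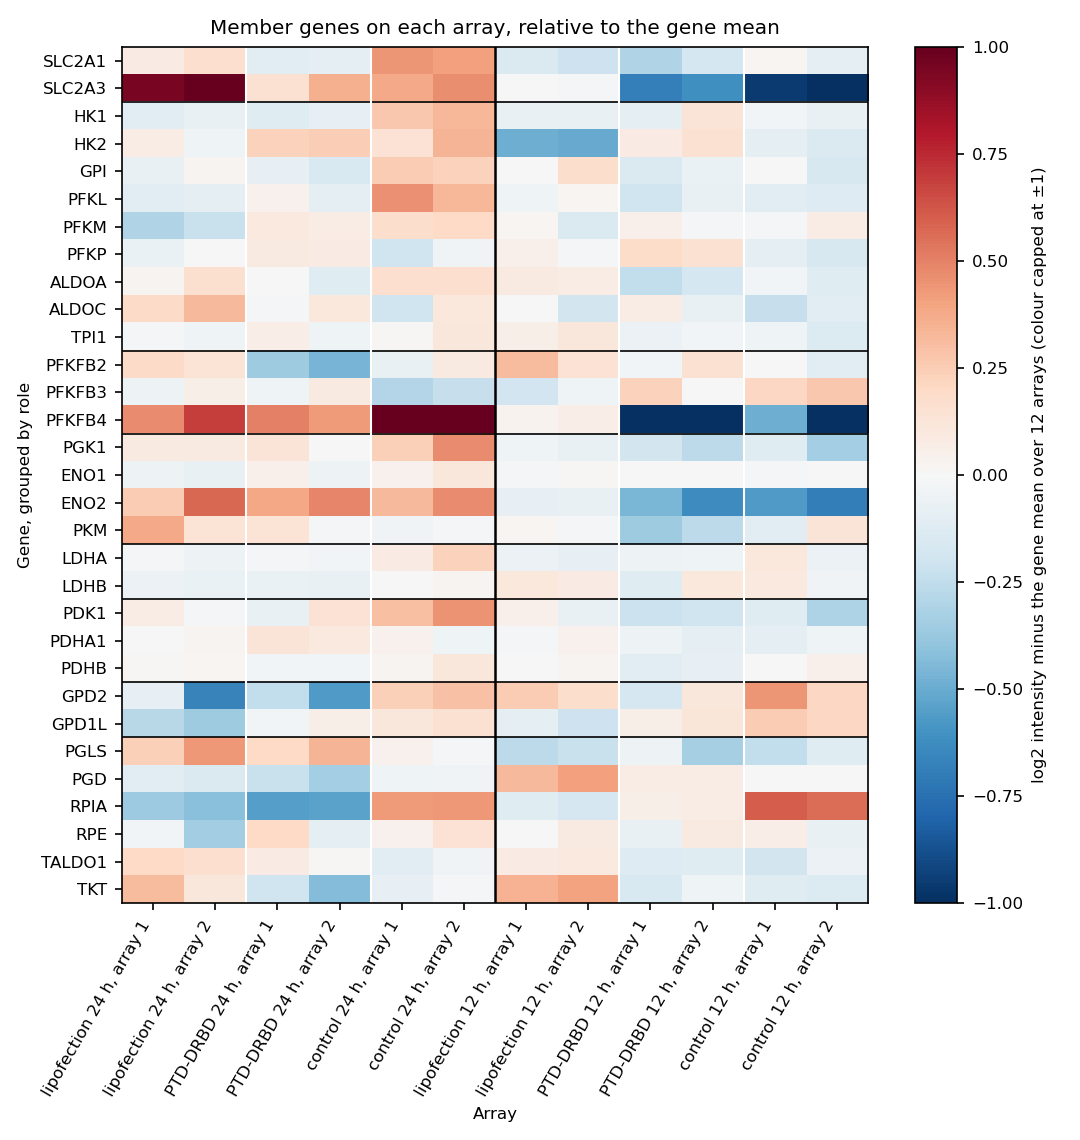
Log2 level of each of the 31 genes (rows, grouped by role) on each of the 12 arrays (columns), minus the gene's mean over the arrays; colour is capped at 1 in either direction. SLC2A3, PFKFB4 and ENO2 were lowest on the control and PTD-DRBD arrays at 12 h, and RPIA was lower on all 8 treated arrays than on the 4 control arrays.

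RPIA, ribose 5-phosphate isomerase, was the 1 member that passed in all 4 comparisons with control, and it was lower in each. Its log2 level was 10.32 and 10.27 with lipofection at 24 h, 10.13 and 10.15 with PTD-DRBD at 24 h, and 11.11 and 11.12 in control at 24 h. At 12 h it was 10.56 and 10.52 with lipofection, 10.74 and 10.76 with PTD-DRBD, and 11.29 and 11.24 in control. The treated and control arrays did not overlap at either time. Here and below, genes are named because they passed the test, so arrays that do not overlap describe the values and add no support. At 24 h RPIA RNA was 1.77-fold lower with lipofection (log2 fold change -0.82, SE 0.07, adjusted p = 3.34e-05) and 1.96-fold lower with PTD-DRBD (-0.97, SE 0.07, adjusted p = 5.85e-05). At 12 h it was 1.65-fold lower with lipofection (-0.72, adjusted p = 8.73e-05) and 1.43-fold lower with PTD-DRBD (-0.51, adjusted p = 0.00185). At each time both comparisons share the control arrays. Each of these 4 calls was kept when any 1 array was left out. Between the routes, RPIA with lipofection minus RPIA with PTD-DRBD was 0.15 at 24 h (adjusted p = 0.193) and -0.21 at 12 h (adjusted p = 0.0643), neither of which passed.

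**Figure D2:**
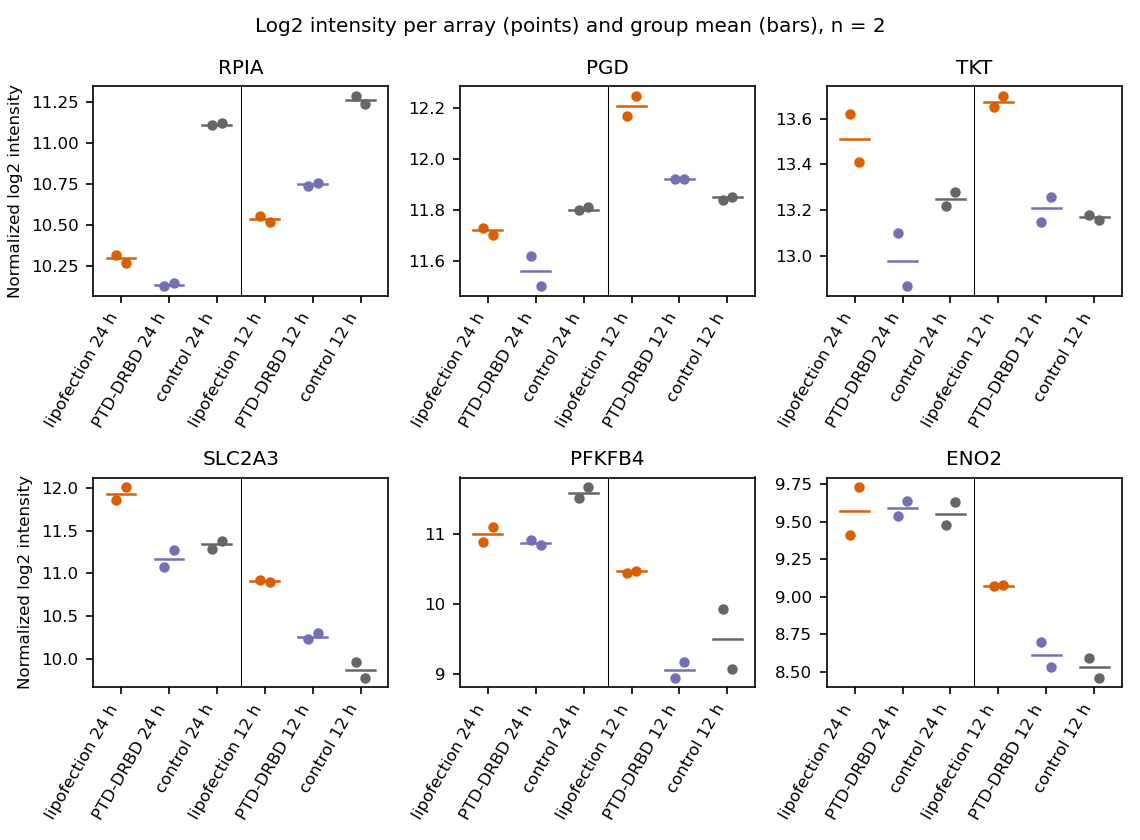
Normalized log2 level of 6 genes on each array (points) with the group mean (bars, n = 2 arrays), 24 h groups left of the line and 12 h groups right of it; each panel has its own axis. RPIA lay at 10.13 to 10.32 on the treated arrays at 24 h, against 11.11 and 11.12 in control, and SLC2A3 was highest with lipofection at both times.

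Lipofection against control at 24 h gave 9 of the 31 members lower and 3 higher, where 12.9% of all genes tested were called lower and 10.6% higher, and the members' median log2 fold change was -0.09 against 0 for all genes. In glucose uptake the 2 transporters went opposite ways. SLC2A3, the high-affinity GLUT3, stood at 11.86 and 12.01 with lipofection against 11.29 and 11.38 in control (log2 fold change 0.60, SE 0.10, adjusted p = 0.00179). SLC2A1, the widespread GLUT1, had a log2 fold change of -0.30 (adjusted p = 0.0183).

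From hexokinase to the triose phosphates, 4 of 9 genes fell and none rose with lipofection at 24 h. PFKL, the liver-type phosphofructokinase, stood at 7.36 and 7.38 with lipofection against 7.93 and 7.80 in control (-0.49, SE 0.08, adjusted p = 0.00207). PFKM, the muscle-type subunit, stood at 9.40 and 9.48 with lipofection against 9.88 and 9.90 in control (-0.45, SE 0.08, adjusted p = 0.00255). HK1, the common hexokinase, fell by 0.39 on the log2 scale and GPI, the glucose 6-phosphate isomerase, by 0.27. PFKL, HK1 and GPI were also called higher in control at 24 h than at 12 h, which uses the same control arrays. The third phosphofructokinase gene, PFKP, had a log2 fold change of 0.08 and did not pass. PDK1, the kinase that switches off pyruvate dehydrogenase, fell by 0.34, with a dim probe at log2 levels of 5.21 to 5.97 over the 12 arrays.

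Both members of the glycerol 3-phosphate group, GPD2 and GPD1L, fell with lipofection at 24 h. GPD2, the mitochondrial enzyme of the glycerol phosphate shuttle, stood at 7.62 and 7.04 with lipofection against 7.94 and 8.00 in control (-0.64, SE 0.17, adjusted p = 0.022). Its lipofection arrays differed by more than the usual member's (SD 0.41, against a median of 0.06 in this group), and both lay below control. The log2 fold change was -0.35 without lipofection replicate 2 and did not pass (adjusted p = 0.187). GPD1L, a relative of the cytosolic enzyme, had a log2 fold change of -0.45 (SE 0.08, adjusted p = 0.00245). In the pentose phosphate pathway 2 of 6 genes rose and RPIA fell. PGLS, the lactonase of the oxidative arm, stood at 10.82 and 11.02 with lipofection against 10.63 and 10.57 in control (0.32, SE 0.11, adjusted p = 0.0496). TALDO1, transaldolase, stood at 12.79 and 12.76 with lipofection against 12.49 and 12.56 in control (0.25, SE 0.07, adjusted p = 0.032). GPD1L, PFKL, PFKM, RPIA and SLC2A3 kept their calls when any 1 array was left out. The count of 12 calls fell to 7 without control replicate 1 and to 6 without control replicate 2.

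PTD-DRBD against control at 24 h gave 10 members lower and none higher, where 8.15% of all genes tested were called lower and 5.87% higher. The members' median log2 fold change was -0.11, against -0.01 for all genes. RPIA fell most. PFKFB4, a PFKFB isoform that rises in low oxygen, stood at 10.92 and 10.84 with PTD-DRBD against 11.52 and 11.68 in control (-0.72, SE 0.21, adjusted p = 0.0421). GPD2 stood at 7.46 and 7.14 with PTD-DRBD against 7.94 and 8.00 in control (-0.67, SE 0.17, adjusted p = 0.0305). SLC2A1 stood at 8.32 and 8.33 with PTD-DRBD against 8.87 and 8.84 in control (-0.53, SE 0.08, adjusted p = 0.00343). The treated arrays of all these genes lay below the control arrays.

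The other 6 members that fell with PTD-DRBD at 24 h were PFKL (-0.42), PFKFB2 (-0.41), HK1 (-0.39), GPI (-0.36), PDK1 (-0.33) and PGD (-0.24). PFKFB2 encodes another of the PFKFB enzymes, and PGD the NADPH-making 6-phosphogluconate dehydrogenase. SLC2A3 had a log2 fold change of -0.16 and did not pass. With lipofection at 24 h, in a comparison that shares the control arrays, the log2 fold change was -0.60 for PFKFB4, 0.16 for PFKFB2 and -0.09 for PGD, none of which passed. Only RPIA and SLC2A1 kept their calls with PTD-DRBD when any 1 array was left out. The count of 10 fell to 3 without control replicate 1, to 3 without control replicate 2, and to 2 without PTD-DRBD replicate 2.

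Lipofection against control at 12 h gave 5 members higher and 4 lower, where 4.95% of all genes tested were called higher and 6.92% lower. The members' median log2 fold change was 0.07, against 0 for all genes. SLC2A3 stood at 10.92 and 10.90 with lipofection against 9.96 and 9.78 in control, a 2.06-fold difference (log2 fold change 1.04, SE 0.10, adjusted p = 6.89e-05). PFKFB4 stood at 10.45 and 10.48 with lipofection against 9.93 and 9.07 in control (0.96, SE 0.21, adjusted p = 0.0123). The 2 control arrays of PFKFB4 lay far apart (SD 0.61), and the log2 fold change was 1.39 without control replicate 1 and 0.53 without control replicate 2. ENO2, the neuronal enolase, stood at 9.07 and 9.08 with lipofection against 8.59 and 8.46 in control (0.55, SE 0.11, adjusted p = 0.0092). TKT, transketolase, stood at 13.65 and 13.70 with lipofection against 13.18 and 13.16 in control (0.50, SE 0.10, adjusted p = 0.00694). PGD had a log2 fold change of 0.36 (adjusted p = 0.00879). The arrays of the 2 groups did not overlap for any of these genes, which were chosen because they passed.

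The members that fell with lipofection at 12 h were RPIA and 3 genes from other steps. HK2, the inducible hexokinase of many tumours, stood at 8.75 and 8.73 with lipofection against 9.15 and 9.09 in control (-0.38, SE 0.08, adjusted p = 0.0142). GPD1L stood at 10.31 and 10.19 with lipofection against 10.65 and 10.61 in control (-0.38, SE 0.08, adjusted p = 0.00897). PFKFB3, the PFKFB isoform with the strongest kinase activity, stood at 7.26 and 7.41 with lipofection against 7.66 and 7.72 in control (-0.35, SE 0.10, adjusted p = 0.0355). The epithelial keratin genes KRT8 and KRT18 also fell in this comparison, by 0.51 and 0.36 on the log2 scale, and their part in the members' changes was not tested. RPIA and SLC2A3 kept their calls when any 1 array was left out. The count of 9 fell to 5 without control replicate 1, to 5 without lipofection replicate 1 and to 2 without lipofection replicate 2.

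PTD-DRBD against control at 12 h gave 2 members higher and 1 lower, where 3.42% of all genes tested were called higher and 4.46% lower. GAPDH RNA was lowest in this treated group. The median log2 fold change was 0 for the members and 0.01 for all genes. SLC2A3 stood at 10.23 and 10.30 with PTD-DRBD against 9.96 and 9.78 in control (0.39, SE 0.10, adjusted p = 0.0315). PFKP, the platelet-type phosphofructokinase, stood at 12.33 and 12.30 with PTD-DRBD against 12.06 and 11.99 in control (0.29, SE 0.08, adjusted p = 0.0468). RPIA was the member that fell, and the 1 that kept its call when any 1 array was left out. The count of 3 fell to 1 without control replicate 1, PTD-DRBD replicate 1 or PTD-DRBD replicate 2. In the plot of fold changes against control, the members' median absolute log2 fold change was 0.21 with PTD-DRBD at 24 h (0.15 for all genes) and 0.07 with PTD-DRBD at 12 h (0.12 for all genes).

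**Figure D3:**
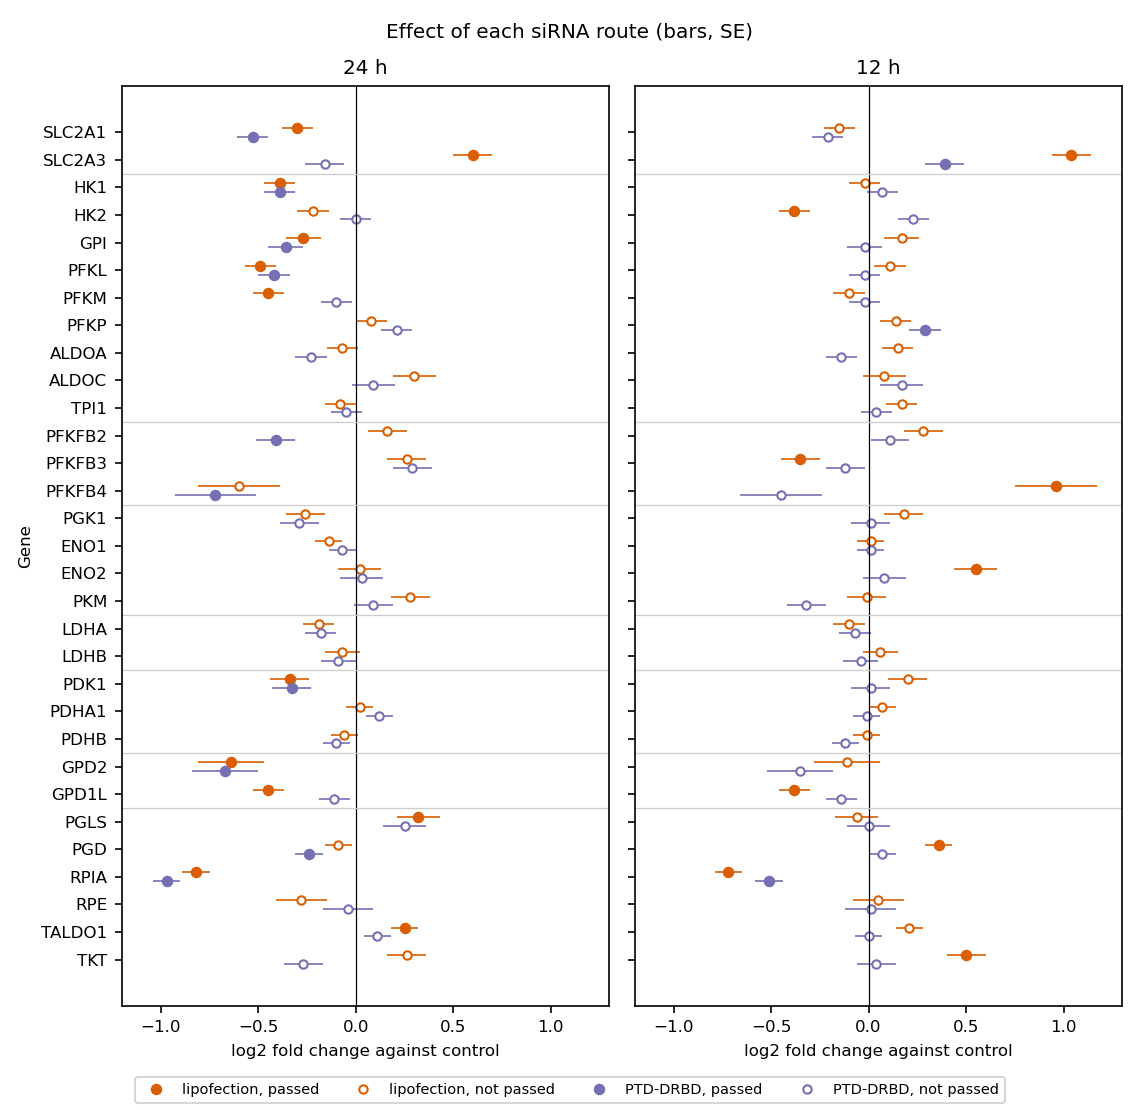
Log2 fold change of each of the 31 genes against control with its SE (n = 2 arrays a group), at 24 h (left) and 12 h (right), for lipofection and PTD-DRBD; filled points had an adjusted p under 0.05. At 24 h 9 genes were lower and 3 higher with lipofection, and 10 lower with PTD-DRBD; at 12 h the counts were 4 lower and 5 higher with lipofection, and 1 lower and 2 higher with PTD-DRBD.

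Set directly against each other at 12 h, the 2 routes differed in 7 members, with 6 higher and 1 lower with lipofection than with PTD-DRBD. Of all genes tested, 6.51% were called higher and 8.29% lower. PFKFB4 stood at 10.45 and 10.48 with lipofection against 8.94 and 9.17 with PTD-DRBD, a 2.66-fold difference (log2 fold change 1.41, SE 0.21, adjusted p = 0.00132). SLC2A3 stood at 10.92 and 10.90 with lipofection against 10.23 and 10.30 with PTD-DRBD (0.65, SE 0.10, adjusted p = 0.0014). ENO2 stood at 9.07 and 9.08 with lipofection against 8.70 and 8.53 with PTD-DRBD (0.46, SE 0.11, adjusted p = 0.0187). No array of one route overlapped the other for these 3 genes. PFKFB4 and ENO2 were named above among the targets of the hypoxia-inducible factors. PGK1 and PDK1, also named there, did not pass in this comparison, and a part of low oxygen was not tested.

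TKT stood at 13.65 and 13.70 with lipofection against 13.15 and 13.26 with PTD-DRBD at 12 h (0.46, SE 0.10, adjusted p = 0.0093). PGD and ALDOA, the aldolase of most tissues, were each higher with lipofection by a log2 fold change of 0.29. HK2 stood at 8.75 and 8.73 with lipofection against 9.32 and 9.39 with PTD-DRBD (-0.61, SE 0.08, adjusted p = 0.000934). KRT8 (-0.63, adjusted p = 0.00119) and KRT18 (-0.35, adjusted p = 0.0289) were also lower with lipofection in this comparison, and their part in the members' differences was not tested. HK2, PFKFB4 and SLC2A3 kept their calls when any 1 array was left out. The count of 7 was 4 without PTD-DRBD replicate 1, PTD-DRBD replicate 2 or lipofection replicate 1, and 3 without lipofection replicate 2.

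At 24 h the routes differed in 5 members, 3 of them higher and 2 lower with lipofection than with PTD-DRBD, where 4.69% of all genes tested were called higher and 3.57% lower. SLC2A3 stood at 11.86 and 12.01 with lipofection against 11.07 and 11.27 with PTD-DRBD (log2 fold change 0.76, SE 0.10, adjusted p = 0.00101). PFKFB2 stood at 7.89 and 7.83 with lipofection against 7.34 and 7.23 with PTD-DRBD (0.57, SE 0.10, adjusted p = 0.00535). TKT stood at 13.62 and 13.41 with lipofection against 13.10 and 12.87 with PTD-DRBD (0.53, SE 0.10, adjusted p = 0.008). SLC2A3 and TKT were thus higher with lipofection at both times in the comparison of routes.

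PFKM was lower at 24 h, with 9.40 and 9.48 under lipofection against 9.80 and 9.78 under PTD-DRBD (-0.35, adjusted p = 0.0204). GPD1L was lower too, with 10.12 and 10.04 under lipofection against 10.37 and 10.46 under PTD-DRBD (-0.34, adjusted p = 0.0228). PFKFB2 and SLC2A3 kept their calls when any 1 array was left out. The count of 5 was 3 without PTD-DRBD replicate 1, 2 without PTD-DRBD replicate 2, 2 without lipofection replicate 1 and 3 without lipofection replicate 2. The members' median log2 difference between the routes was 0.03 at 24 h and 0.11 at 12 h, against 0 for all genes at both times.

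In control cells 10 of the 31 genes were higher and 1 lower at 24 h than at 12 h, and 20 did not pass, where 4.15% of all genes tested were called higher and 4.56% lower, and the members' median log2 fold change was 0.13 against 0.01 for all genes. PFKFB4 stood at 11.52 and 11.68 at 24 h against 9.93 and 9.07 at 12 h, a 4.27-fold difference (log2 fold change 2.10, SE 0.21, adjusted p = 0.00015). It was 2.53 without control 12 h replicate 1 and 1.66 without control 12 h replicate 2. SLC2A3 stood at 11.29 and 11.38 at 24 h against 9.96 and 9.78 at 12 h (1.46, SE 0.10, adjusted p = 1.67e-05). ENO2 stood at 9.48 and 9.63 at 24 h against 8.59 and 8.46 at 12 h (1.03, SE 0.11, adjusted p = 0.00028). PGK1, the kinase of the first ATP-making step, stood at 13.92 and 14.15 at 24 h against 13.56 and 13.34 at 12 h (0.59, SE 0.10, adjusted p = 0.00406). No 24 h array of these genes overlapped a 12 h array.

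The other members that rose in control were PDK1 (0.58), PFKL (0.52), SLC2A1 (0.46), HK2 (0.36), HK1 (0.35) and GPI (0.33). PDK1, PFKL, SLC2A1, HK1 and GPI were also called lower with both routes at 24 h. Those falls and these rises share the control arrays at 24 h and are not separate results. GPD2 and RPIA were called lower with both routes at 24 h too, and neither passed in control with time. HK1 had a mean log2 level of 11.70 in control at 24 h and of 11.30 to 11.41 in every other group. PFKFB3 fell, at 7.16 and 7.22 at 24 h against 7.66 and 7.72 at 12 h (-0.50, SE 0.10, adjusted p = 0.00804). No pentose phosphate or lactate dehydrogenase gene passed in this comparison. ENO2, PFKFB4, PFKL, PGK1, SLC2A1 and SLC2A3 kept their calls when any 1 array was left out. The count of 11 was 7 without control 12 h replicate 2 and 7 without control 24 h replicate 2.

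Within lipofection-treated cells, 6 members were higher and 3 lower at 24 h than at 12 h, where 13.2% of all genes tested were called higher and 12.4% lower. SLC2A3 (1.02), PGLS (0.58), HK2 (0.51) and ENO2 (0.50) had the largest rises, followed by ALDOC (0.35), a brain-type aldolase, and SLC2A1 (0.31). PGLS stood at 10.82 and 11.02 at 24 h against 10.32 and 10.36 at 12 h. GPD2 (-0.59), PGD (-0.49) and RPIA (-0.25) fell. GPD2 had -0.30 without lipofection 24 h replicate 2 and did not pass (adjusted p = 0.249). PGD stood at 11.73 and 11.70 at 24 h against 12.17 and 12.25 at 12 h. PFKFB4 had a log2 fold change of 0.53 here and did not pass. The blood cell marker PTPRC was lower in this comparison, with mean log2 levels of 5.23 at 24 h and 5.55 at 12 h (-0.32, adjusted p = 0.0305), and its part in the members' changes was not tested. HK2, PGD, PGLS and SLC2A3 kept their calls when any 1 array was left out, and the count of 9 was 4 without lipofection 12 h replicate 1, lipofection 12 h replicate 2 or lipofection 24 h replicate 2.

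Within PTD-DRBD-treated cells, 5 members were higher and 3 lower at 24 h than at 12 h, where 12% of all genes tested were called higher and 12.5% lower. PFKFB4 stood at 10.92 and 10.84 at 24 h against 8.94 and 9.17 at 12 h (log2 fold change 1.83, adjusted p = 0.00034). ENO2 (0.98), SLC2A3 (0.91), PGLS (0.46) and PKM (0.37), the pyruvate kinase of tumour cells, also rose. RPIA (-0.61), PFKFB2 (-0.47) and PGD (-0.36) fell, so PGLS rose and PGD and RPIA fell with time in both treated groups. In control PGLS, PGD and RPIA did not pass with time, though their means moved in the same directions. The control means at 24 h and 12 h were 10.60 and 10.40 for PGLS, 11.80 and 11.85 for PGD, and 11.11 and 11.26 for RPIA. With PTD-DRBD, ENO2, PFKFB4, RPIA and SLC2A3 kept their calls when any 1 array was left out. The count of 8 was 5 without PTD-DRBD 12 h replicate 2 and 4 without PTD-DRBD 24 h replicate 2. These comparisons within the treated groups were added after the data were seen.

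**Figure D4:**
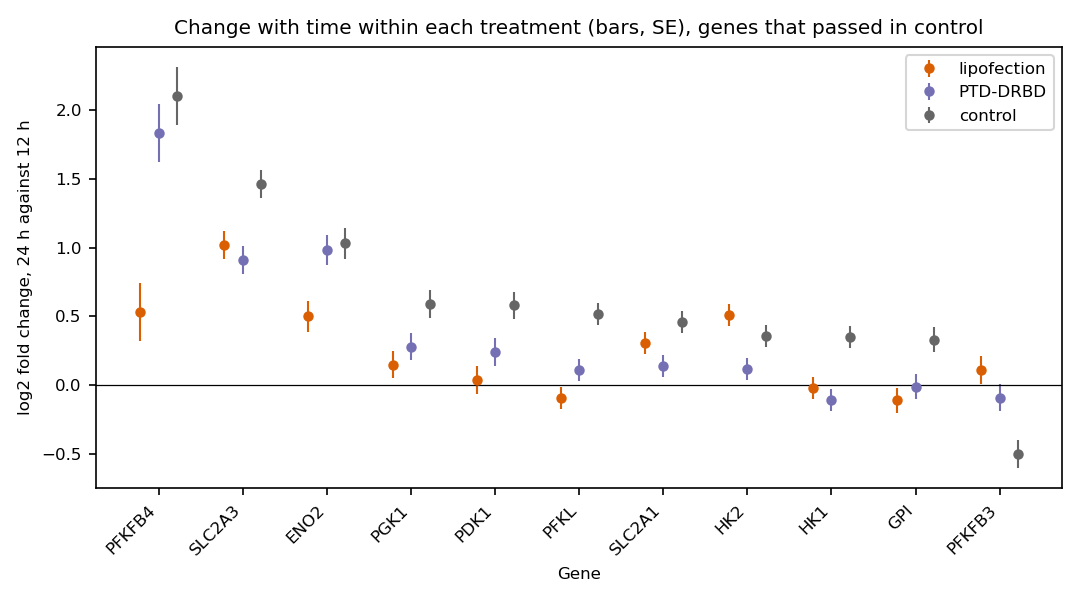
Log2 fold change of the 24 h against the 12 h arrays, with its SE, within lipofection, PTD-DRBD and control (n = 2 arrays a group), for the 11 genes that passed in control. PFKFB4 had 0.53 with lipofection, 1.83 with PTD-DRBD and 2.10 in control, and PGK1 had 0.15 with lipofection, 0.28 with PTD-DRBD and 0.59 in control.

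The change of the lipofection effect between the times was tested as the effect at 24 h minus the effect at 12 h. The same number is the change with time under lipofection minus the change with time in control. It passed for 5 members, 1 upward and 4 downward, where 3.97% of all genes tested were called higher and 4.02% lower. For PFKFB4 it was -1.56 (SE 0.29, adjusted p = 0.0139), from an effect of -0.60 at 24 h, which did not pass, and 0.96 at 12 h. Without control 12 h replicate 1 it was -1.99, and without control 12 h replicate 2 it was -1.13. PFKL changed by -0.60 (effects of -0.49 at 24 h and 0.11 at 12 h) and PDK1 by -0.55 (effects of -0.34 at 24 h and 0.20 at 12 h). PGD changed by -0.45 (effects of -0.09 at 24 h and 0.36 at 12 h), and PFKFB3 by 0.61 (effects of 0.26 at 24 h and -0.35 at 12 h). No call was kept under every array left out. The count of 5 was 3 without lipofection 24 h replicate 2, 1 without either control 24 h array, 2 without lipofection 12 h replicate 1 and 0 without lipofection 12 h replicate 2. It was 3 without control 12 h replicate 1 and 1 without control 12 h replicate 2.

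For PTD-DRBD the change of effect passed for 0 members by limma, where 0.124% of all genes tested were called higher and 0.239% lower. At an unadjusted limma p under 0.05 there were 12 of the 31 members, and 2240 of the 12117 genes tested. The largest were SLC2A3, with -0.56 (SE 0.14, adjusted p = 0.0861), and PFKFB2, with -0.53 (adjusted p = 0.099). Whether the 2 routes differ in this change was not tested.

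Several members had a second detected probe, which was not used for the counts. A second ALDOA probe was called higher with lipofection than in control at 12 h (log2 fold change 0.44), higher with lipofection against PTD-DRBD at 24 h (0.30), and higher in control at 24 h than at 12 h (0.45), where the ALDOA probe used did not pass. A second PKM probe was called higher with lipofection than in control at 24 h (0.44), where the PKM probe used had 0.28 and did not pass. For PTD-DRBD at 24 h against 12 h the PKM probe used passed (0.37), and the second had 0.23 and did not. The PKM symbol does not tell which splice form a probe reads. Second probes of HK1, PFKFB2 and TALDO1 passed in no comparison. For PTD-DRBD against control at 24 h, the PFKFB2 probe used had -0.41 and its other 2 probes 0.23 and -0.02. For lipofection against PTD-DRBD at 24 h they had 0.12 and 0.28, beside 0.57. For PTD-DRBD at 24 h against 12 h the PFKFB2 probe used had -0.47 and its other 2 probes -0.06 and 0.05. In control at 24 h against 12 h HK1 had 0.35 and its second probe -0.06. Against control at 24 h the HK1 probes had -0.39 and -0.31 with lipofection, and -0.39 and -0.11 with PTD-DRBD. These second probes were dim, at mean log2 levels of 4.94 to 5.65. The authors' deposited table, limited to changes of 1.6-fold or more, holds few members, with signed folds that are negative for a fall. In the authors' deposited table lipofection at 24 h lists RPIA (-1.73), and PTD-DRBD at 24 h lists RPIA (-1.94) and PFKFB4 (-1.63). The authors' deposited table lists SLC2A3 (2.00), PFKFB4 (1.88) and RPIA (-1.64) for lipofection at 12 h and no member for PTD-DRBD at 12 h.

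Genes around the pathway that are no members were read from 5 lists. Of all genes tested, 10.6% were called higher and 12.9% lower with lipofection at 24 h, and 5.87% and 8.15% with PTD-DRBD at 24 h. At 12 h the shares were 4.95% and 6.92% with lipofection, and 3.42% and 4.46% with PTD-DRBD. Several list counts lie near these shares, such as the 12.5% of pyruvate and TCA cycle genes called lower with lipofection at 24 h. Of 24 tested genes of pyruvate entry and the TCA cycle, lipofection at 24 h had 1 higher and 3 lower, and 0 rose and 4 fell with PTD-DRBD at 24 h. At 12 h, 1 rose with lipofection and 2 fell with PTD-DRBD. PDK3 and PDK2, relatives of PDK1, fell by 0.62 and 0.40 with lipofection at 24 h and by 0.55 and 0.35 with PTD-DRBD at 24 h. IDH1, the cytosolic NADPH-making isocitrate dehydrogenase, fell by 0.42 with lipofection and by 0.63 with PTD-DRBD at 24 h, and rose with lipofection at 12 h (log2 fold change 0.62). Of 7 genes of pentose phosphate and NADPH supply, 1 rose and 2 fell with lipofection at 24 h, 1 fell with PTD-DRBD at 24 h, 1 rose with lipofection at 12 h and 0 passed with PTD-DRBD at 12 h. The riser was ME1, the cytosolic malic enzyme (0.43 with lipofection at 24 h and 0.77 at 12 h). PRPS2, which joins ribose 5-phosphate to pyrophosphate for nucleotides, fell by 0.48 with lipofection and by 0.25 with PTD-DRBD at 24 h.

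Of 20 genes on branches such as serine, glycogen and hexosamine synthesis, 0 rose and 5 fell with lipofection at 24 h and 0 rose and 2 fell with PTD-DRBD at 24 h. At 12 h, 5 rose and 1 fell with lipofection and 3 rose with PTD-DRBD. PSAT1 and PHGDH, which lead from 3-phosphoglycerate into serine, had log2 fold changes of 0.42 and 0.41 with lipofection and of 0.75 and 0.49 with PTD-DRBD at 12 h. UAP1, of hexosamine synthesis, fell with lipofection by 0.53 at 24 h and by 0.55 at 12 h. Of 14 other glycolytic isoforms and sugar-entry genes, 0 rose and 4 fell with lipofection and 0 rose and 1 fell with PTD-DRBD at 24 h. At 12 h, 1 rose with lipofection, and 1 rose and 1 fell with PTD-DRBD. PCK2, the mitochondrial phosphoenolpyruvate carboxykinase, rose at 12 h with lipofection (0.40) and with PTD-DRBD (0.70). PGM2, a phosphopentomutase, fell by 0.51 with lipofection and by 0.34 with PTD-DRBD at 24 h.

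Of 15 regulators, 4 were higher and 3 lower with lipofection at 24 h, 0 rose and 1 fell with PTD-DRBD at 24 h, 1 rose and 2 fell with lipofection at 12 h, and 2 rose with PTD-DRBD at 12 h. EPAS1, the hypoxia-inducible factor HIF-2 alpha, fell by 0.48 with lipofection and by 0.55 with PTD-DRBD at 24 h, and by 0.64 with lipofection at 12 h. NFE2L2, which encodes NRF2, had a log2 fold change of 0.45 with lipofection at 24 h. KEAP1 was also called higher with lipofection, by 0.37 at 24 h and by 0.36 at 12 h. Whether the activity of NRF2 changed was not tested. HIF1A RNA passed in none of the 4 comparisons with control. Counts of all these lists stand against the same shares of all genes tested as given for the members.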

How the data were processed

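Total RNA of H1299 cells was measured on 12 Illumina expression arrays, 2 in each of 6 groups taken from the labels. A non-normalized table that the authors deposited gives, for 48701 probes on each array, a raw intensity with its detection p-value, read with BeadStudio per the submitters' processing notes (version not stated). The authors' normalized intensity in the series matrix was used as an alternative, made by a method not named in the sources at hand. A signed fold, used as a score, comes from the authors' deposited table of changes.

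The neqc function of limma 3.58.1 (R 4.3.3) corrected raw intensities for background through the detection p-values, added an offset of 16, and returned quantile-normalized log2 values. A probe was kept if detected at a p under 0.05 on both arrays in 1 group or more (19631 probes, 40.3%), and the brightest probe with a single annotated gene stood for each of 12117 genes. A limma fit of 6 group means used all 12 arrays, with 6 residual degrees of freedom and 5.3 from the prior. Benjamini-Hochberg adjustment ran over all genes in each comparison, with a threshold of 0.05. An exact permutation test of 2 arrays against 2 cannot go below p = 0.333, so none was used. The number of arrays limits the precision. The fit was tested on simulated data.

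The members and the other gene lists were chosen with earlier results of these data known. Members that passed were named, with values on each array for at most the 4 largest changes in each direction. Where none passed, the 2 largest were named, and at most 3 passing genes of another list. Replicate numbers are only names, in the order of the samples. No source used here assigns arrays to chips, so no batch was fitted. Alternatives covered background correction, normalization, the authors' values, the detection filter, probe choice, the arrays fitted, moderation, a fold of 1.6, and arrays left out.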

Additional observations from a re-analysis of the deposited data

Results flagged for a closer look

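The effect of lipofection against control differed between 24 h and 12 h by a test of the difference for 5 members, given here as the effect at 24 h minus the effect at 12 h on the log2 scale. The difference was -1.56 for PFKFB4, -0.60 for PFKL, -0.55 for PDK1, -0.45 for PGD and 0.61 for PFKFB3. Each lost its call when some 1 array was left out. PFKFB4 rests in part on its control arrays at 12 h, with log2 levels of 9.93 and 9.07. The PDK1 probe was dim, at log2 levels of 5.21 to 5.97 over the 12 arrays.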

How the results depend on the processing

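Of 79 calls of single members in the 11 comparisons, 0 changed direction in any of 22 other settings and 13 were kept in every setting that could be run for them. Counts of members called moved by over 1.5 times as follows. Without background correction, with the authors' normalized values, and with an intensity trend and robust moderation, lipofection against PTD-DRBD at 12 h gave 11, the change of the lipofection effect 10 and the change of the PTD-DRBD effect 3. Detection on all 12 arrays gave 1 for the change of the PTD-DRBD effect. With every probe fitted, the change of the lipofection effect gave 3 and PTD-DRBD against control at 12 h gave 1. With only the arrays of the groups compared, PTD-DRBD against control at 12 h gave 1 and lipofection against PTD-DRBD at 24 h gave 2. Cyclic loess and no detection filter moved no count by more than 1.5 times.

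A fold of 1.6 as well as the test cut the counts by its own construction. It left 1 for lipofection and 2 for PTD-DRBD against control at 24 h, 3 for lipofection and 0 for PTD-DRBD against control at 12 h, 1 for lipofection against PTD-DRBD at each time, and 1 for the change of the lipofection effect. For 24 h against 12 h it left 1 within lipofection, 3 within PTD-DRBD and 3 within control.

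With 1 array left out at a time, lipofection against control gave 6 to 10 calls at 24 h and 2 to 6 at 12 h, and PTD-DRBD against control gave 2 to 7 at 24 h and 1 to 2 at 12 h. Lipofection against PTD-DRBD gave 2 to 3 at 24 h and 3 to 4 at 12 h. The change of the lipofection effect gave 0 to 6. Times within lipofection gave 4 to 8, within PTD-DRBD 4 to 8 and within control 7 to 8. The lone array left in such a group is assumed to vary like the other groups.

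Differences between the 2 arrays of a group correlated at -0.40 to 0.32 over all genes between pairs of groups, and since the replicate numbers only follow sample order, the signs carry no meaning. Without the second arrays of lipofection and PTD-DRBD at 24 h, a setting chosen after seeing the data, PTD-DRBD against control at 24 h gave 2, lipofection against PTD-DRBD at 24 h 1, the change of the lipofection effect 3, and 24 h against 12 h 4 within lipofection and 5 within PTD-DRBD. Fewer arrays were fitted in these settings; the cause of the other shifts was not tested. No paired analysis was possible because the labels give the groups no shared replicate numbers.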
